A study of Mus musculus with 5 samples.

Results

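The genes of the cytosolic ribosomal proteins were followed in the mandibular tissue of E10.5 mice, with and without a Cre meant to delete Yap and Taz in the neural crest. The RNA was poly(A)-selected and sequenced in bulk. Members were gene symbols made of Rpl or Rps and a digit, together with Rplp0, Rplp1, Rplp2 and Rpsa. Rps6k kinases and symbols with -ps or Rik were left out, and the counts had to sum to 15 or more over the 5 libraries. Of 23441 gene rows, 86 symbols fitted and 82 reached the count minimum. These 82 were 45 proteins of the large subunit, 31 of the small subunit, 5 paralogs (Rpl7l1, Rpl22l1, Rpl36al, Rps27l and Rps4y2) and Rps19bp1, which fits the symbol pattern but encodes a binding protein of Rps19. The 4 symbols left out were Rpl10l with 2 counts, Rpl39l with 7, and Rpl3l and Rpl26 with 0, while the members just inside the minimum were Rps27 with 81 counts and Rpl30 with 96. All 82 members passed the low count filter of the test.

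The 3 control libraries came from embryos of strain 129SvEv with genotype Yapf/f, Tazf/f, that is, with floxed alleles of both genes and no Cre named. The 2 dCKO libraries came from embryos of strain C57BL/6J x CBA/J; 129SvEv with genotype Wnt1Cre; Yapf/f, Tazf/f. Wnt1Cre is active in the premigratory neural crest, the source of much first arch mesenchyme, so that epithelium, vessels and blood in the tissue lie outside its main domain. Strain and genotype cannot be told apart in this design. The labels do not say that libraries came from separate embryos or whether embryos were pooled, and the p-values therefore reflect the spread among these 5 libraries alone, which may be technical.

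Totals were 6491137 to 7439419 counts in the controls, and 11346480 and 13298973 in dCKO replicates 1 and 2. Yap1 read 312, 475 and 512 CPM (counts scaled to library size with edgeR's TMM factors) in the controls and 175 and 170 in dCKO, and Wwtr1, the gene of Taz, read 38.4, 65.1 and 66.2 against 22.7 and 22.8. Both were lower in the libraries labelled dCKO. Of the markers of other cell types, 12 of 16 erythroid genes could be tested and all 12 were higher in dCKO, with a summed level of 3553 to 4577 CPM in the controls and 55993 to 80284 CPM in dCKO. The adult globins Hba-a1, Hba-a2, Hbb-b1 and Hbb-b2 had 0 counts in all 5 libraries. The sources used here do not state how reads with several matches were counted, so these zeros do not show that the genes were silent. All 4 tested megakaryocyte genes, 1 of 4 myeloid genes and 3 of 5 arch epithelium genes were also higher, 0 of 5 endothelial genes and 0 of 2 neural genes were called, and 3 of 7 neural crest mesenchyme genes were lower.

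The ribosome is built from a large and a small subunit, each a scaffold of ribosomal RNA dressed with small basic proteins. Cells make these proteins in matched amounts, and their messenger RNAs are among the most abundant of growing tissue. Most begin with a run of pyrimidines (the terminal oligopyrimidine motif, TOP) through which TOR signalling, acting in part by the protein Larp1, sets how well they are translated. A level of messenger RNA does not show how well it is translated. In people and mice, loss of 1 copy of some of these genes affects red cell formation, the skeleton and the face more than other tissues.

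Start regions were examined to see what the members share in sequence. RefSeq promoter entries (build GRCm38.p6, 250 bases before to 50 after the start) were found for 61 of the 82 members and for 9434 tested genes. A run of 9 or more pyrimidines on the sense strand within 50 bases either side of the start was present in 46 of 61 members (75.4%) and in 22.5% of all tested genes with an entry. The sequences below show this run in capitals for Rps15, a member that was higher in dCKO, for Rpl7a, for the S6 kinase substrate Rps6, for the 5S particle proteins Rpl5 and Rpl11, for Rpl38, for Rpl4, whose level was nearly equal in both groups, and for Rpl22 and its paralog Rpl22l1. Each line is 30 bases on the gene's own strand, which is given by its sign.
Rps15, chr10:80292446-80292475, +: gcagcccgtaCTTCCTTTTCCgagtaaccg
Rpl7a, chr2:26910788-26910817, +: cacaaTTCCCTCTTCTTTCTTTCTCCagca
Rps6, chr4:86857349-86857378, -: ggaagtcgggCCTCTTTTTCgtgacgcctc
Rpl5, chr5:107900497-107900526, +: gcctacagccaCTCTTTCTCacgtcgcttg
Rpl11, chr4:136053358-136053387, -: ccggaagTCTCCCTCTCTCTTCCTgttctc
Rpl38, chr11:114668568-114668597, +: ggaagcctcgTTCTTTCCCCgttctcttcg
Rpl4, chr9:64173405-64173434, +: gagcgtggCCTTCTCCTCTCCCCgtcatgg
Rpl22, chr4:152325679-152325708, +: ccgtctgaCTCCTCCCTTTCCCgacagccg
Rpl22l1, chr3:28805499-28805528, +: cgcaagcccgTTCTCTTCCCacggctgcag
Counted with the first base of the transcript as 1, the run covered positions -14 to 7 in Rpl7a, -1 to 9 in Rps6, -2 to 8 in Rpl38 and 2 to 11 in Rpl22l1. In Rps15 it lay at 26 to 36, in Rpl11 at 14 to 30 and in Rpl4 at 27 to 41, and in Rpl5 and Rpl22 it lay before the annotated start, at -20 to -12 and -39 to -26.

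Of the other motifs, searched on both strands of each entry, CCGGAAG was in 37.7% of the members and 18.2% of all genes with an entry. GGAATG was in 8.20% and 12%, CACGTG in 8.20% and 10.5%, and TATAAA in 9.84% and 6.43%. Among the members that were higher in dCKO, 3 had an entry (Rps13, Rps15 and Rplp0), and the pyrimidine run was present in Rps15 only. The longest run was 6 in Rps13 and 7 in Rplp0. A match is a match of letters and not a mapped start or binding site.

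Levels spanned a wide range for a family whose proteins are needed in equal number. Per kilobase of the principal GENCODE M21 transcript, the mean over the 5 libraries had a median of 166 CPM and was 2.43 CPM for Rpl30, the lowest. The 14 members over 500 CPM per kilobase included Rpl8 (1928 ± 364, SD, n = 5), Rpl41 (1496 ± 226), Rplp0 (1065 ± 164) and Rpl4 (913 ± 35.5). Over the libraries, the range of Rpl8 overlapped that of Rpl41, and the range of Rplp0 that of Rpl4. At the low end, 9 members were under 50 and 4 under 10 CPM per kilobase. Where principal transcripts ranked equally the longest was taken, which lowers this level if a shorter one is in use. The length taken was 5179 bases for Rps15a (6.70 ± 0.698), 1 of the 4, and 2989 bases for Rpl18 (49.9). Which transcripts were in use was not tested. The others of the 4 were Rpl34 (9.57 ± 2.20), Rps27 (4.74 ± 1.92) and Rpl30 (2.43 ± 0.297). The ranges of Rps27 and Rpl34 over the libraries overlapped, but Rpl34 was higher than Rps27 in each library. In control replicate 2, Rps27 lay below Rpl30 (2.74 against 2.90).

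The members' transcripts are widely copied in the genome, and 80 of the 82 shared at least 1 word of 50 bases with a pseudogene in GENCODE M21. The median member had 57.5% of its 50-base words to itself and shared words with 8 pseudogenes, up to 120 for Rpl7a. For Rps27 1.4% of the words were its own, and Rpl26, with 0 counts, had 39.0% of its own and shared with 12 pseudogenes. The sources used here do not state how reads with several matches were counted, and levels of single members are uncertain. Across the 82 members, log2 CPM per kilobase and the share of own words had a Pearson r of 0.03, a description of genes that share libraries.

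Between the groups the family as a whole moved little. Of the 82 members, 6 rose in dCKO, among them Rps13, Rps14, Rps15, Rpl23a and Rplp0, and 0 fell, by edgeR's quasi-likelihood test with Benjamini-Hochberg adjustment over 12710 genes. That is 7.32% of the members, beside a background of 6.42% of all tested genes called, 5.0% higher and 1.42% lower. At an unadjusted p under 0.05, 19 members were higher and 2 lower (background 11.9% and 9.65%, together 21.5%), and the 2 lower ones were Rps3a1 and Rpl7l1. The median log2 fold change of the members was 0.17, with 53 positive and 29 negative, beside -0.00 over all tested genes, and it ran from -0.35 (Rps27l) to 0.83 (Rps27). The groups did not overlap in 15 members with dCKO higher (background 19.0%) and in 1, Rpl7l1, with dCKO lower (background 18.6%). In this bulk tissue, fewer cells of a type and less RNA per cell cannot be told apart.

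Most members were measured closely enough to bound their change. For 56 of 82 the 95% interval lay within a 1.5-fold change either way, beside 51.3% of all tested genes. A log2 fold change of 0.5 or more in size was found in 7 members, and of 1 or more in 0. The median was 0.20 over the large subunit and 0.18 over the small subunit, with 3 members of each called higher and 0 lower. Over the 5 paralogs it was -0.10, with 0 called.

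**Figure D1:**
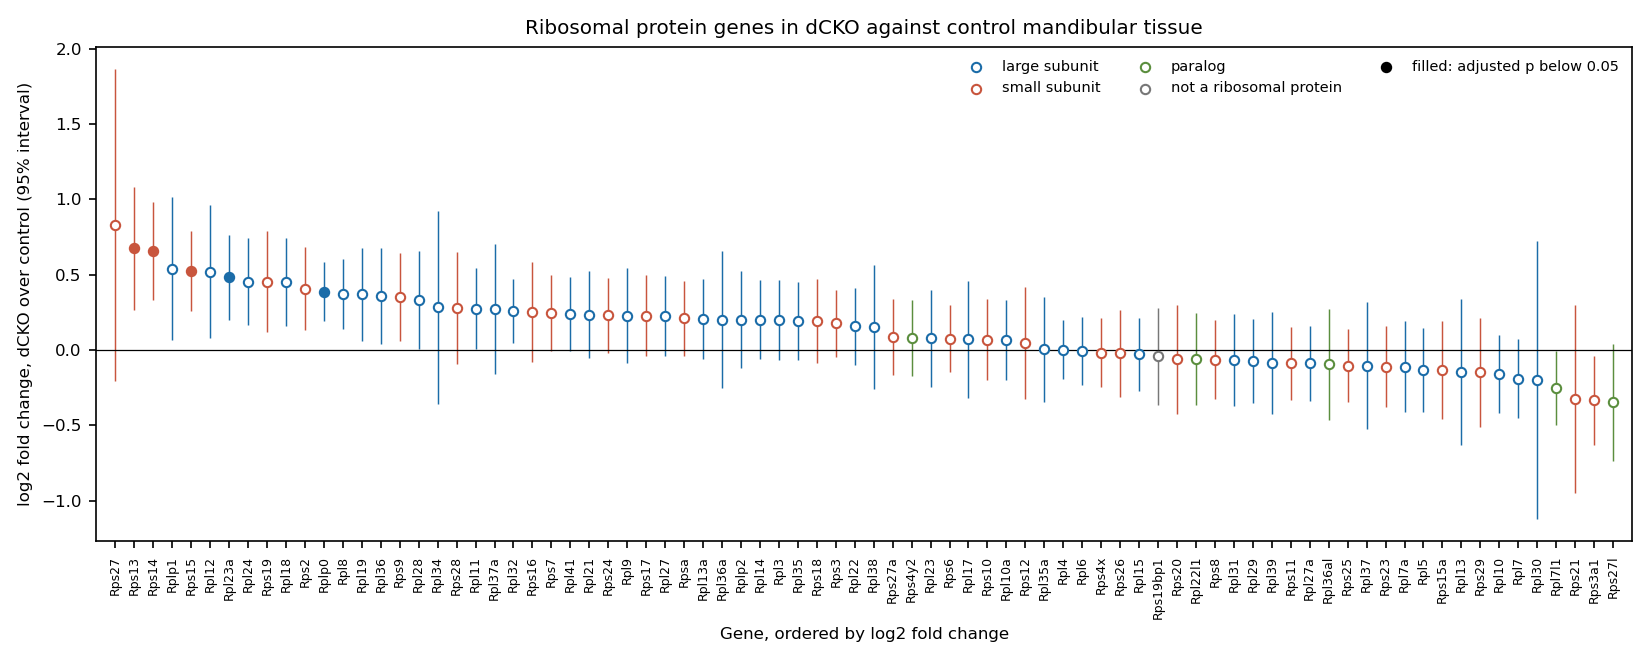
Log2 fold change of dCKO over control for 80 of the 82 members, ordered by value, with its 95% interval. Points are coloured by class and the 5 filled points, from Rps13 at 0.67 down to Rplp0 at 0.39, passed the adjusted threshold of 0.05; the widest intervals belong to Rps27 and Rpl30, the members with the fewest counts.

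Among the 3 members of the small subunit that rose, Rps14, a protein of the platform beside the messenger channel, had the smallest adjusted p. Its level was 130, 164 and 196 CPM in control replicates 1 to 3 and 221 and 293 CPM in dCKO. Both dCKO libraries lay above all 3 controls, and the means were 163 ± 32.9 (SD, n = 3) and 257 ± 51.0 (SD, n = 2). The log2 fold change was 0.66 ± 0.15 (SE; adjusted p = 0.0127 by edgeR).

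Rps15, which sits on the head of the small subunit near the decoding site, read 264, 333 and 355 CPM in the controls and 429 and 481 CPM in dCKO. The groups were apart, and its log2 fold change was 0.52 ± 0.13 (SE; adjusted p = 0.0156 by edgeR). Rps13, an early binding protein of the small subunit, read 38.5, 46.0 and 61.3 CPM in the controls and 97.5 and 57.4 CPM in dCKO. The second dCKO library lay below the third control, so the groups overlapped although the gene passed the test, with a log2 fold change of 0.67 ± 0.20 (SE; adjusted p = 0.0450 by edgeR). Without dCKO replicate 1 it was 0.26 with an adjusted p of 0.670. Of the 50-base words of Rps13, 17.0% were its own. Its exons overlap the small nucleolar RNA Snord14a, and 24 members, Rps13 and Rpl23a among them, have an overlap of this kind.

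In the large subunit, Rpl23a, which lines the exit of the peptide tunnel and is a docking point for the signal recognition particle, read 86.7, 92.9 and 110 CPM against 149 and 121 CPM. The groups were apart and the log2 fold change was 0.48 ± 0.13 (SE; adjusted p = 0.0384 by edgeR). Rpl23a had 17.4% of its 50-base words to itself and shared words with 28 pseudogenes. Its exons overlap 506 bases of Tlcd1 on the opposite strand, and 13 members overlap a protein-coding gene in this way. How reads in the overlap were counted is not known, because the sources used here do not state whether counting used strand.

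The stalk is the flexible arm of the large subunit that recruits elongation factors, with Rplp0 as its base and Rplp1 and Rplp2 as its arms. Rplp0 read 1294, 1262 and 1308 CPM in the controls and 1750 and 1620 CPM in dCKO. The 3 controls lay close together and both dCKO libraries were higher, with a log2 fold change of 0.39 ± 0.09 (SE; adjusted p = 0.0140 by edgeR). Rplp1 read 301, 287 and 502 CPM against 706 and 350 CPM, so that the groups overlapped, with a log2 fold change of 0.54 (adjusted p = 0.173 by edgeR). Rplp2 read 174, 244 and 171 CPM against 255 and 197 CPM and also overlapped (0.20, adjusted p = 0.477). Of the 3 stalk genes, 1 passed the test.

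**Figure D2:**
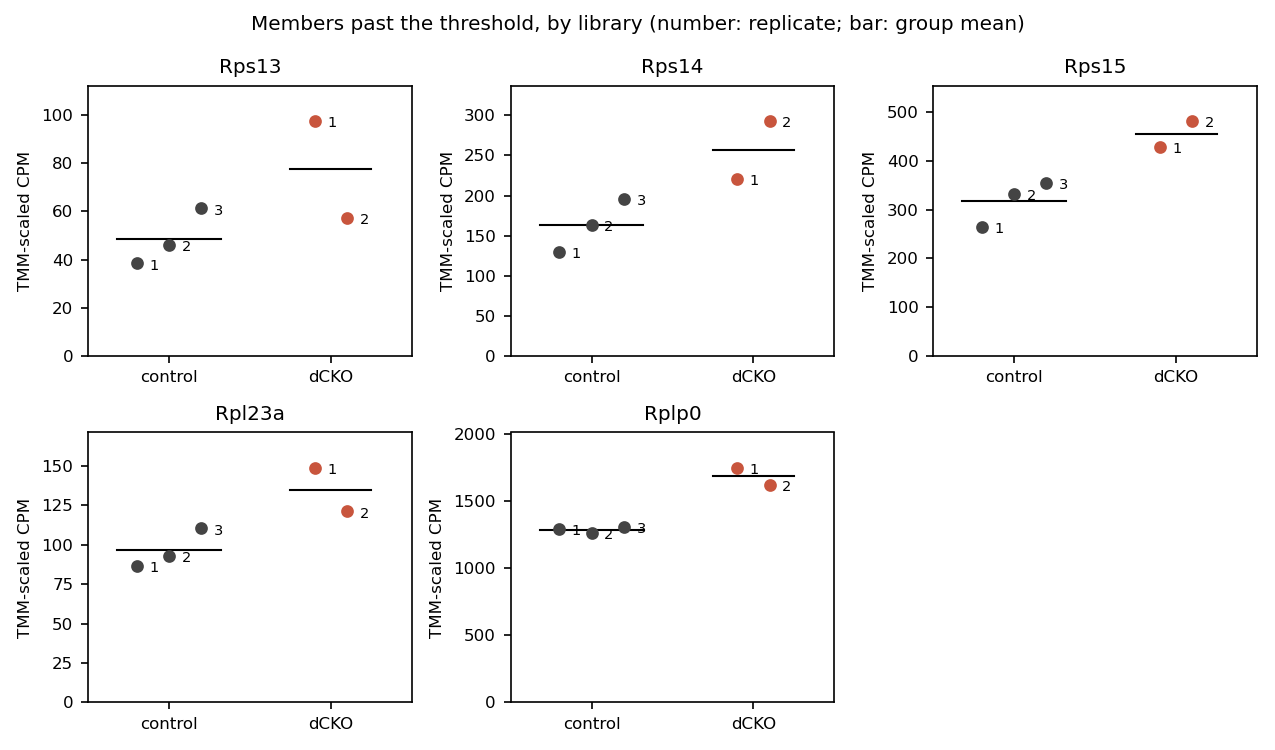
TMM-scaled CPM of 5 of the 6 members that rose, each point a library labelled with its replicate number and each bar a group mean. In 4 panels both dCKO points lie above all controls; in Rps13 the second dCKO library (57.4 CPM) lies below the third control (61.3 CPM).

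Leaving out single libraries changed the calls. Without control replicate 1, 0 members passed, and without control replicate 2, 3 did (Rps14, Rps15 and Rps2). Without control replicate 3, 11 were higher and 3 lower, and all 6 of the members above remained. Without dCKO replicate 1, 3 passed, Rps14 and Rps15 among them, and without dCKO replicate 2, 8 did, of which Rpl23a, Rplp0 and Rps13 were among the 6. The direction of the 6 was the same in every one of these fits. Over 18 alternative settings, Rps14 was called in 15, Rplp0 and Rps15 in 12 each, Rpl23a in 10 and Rps13 in 8.

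A few members stood just outside the threshold. Rpl8, of the peptidyl transferase region, read 1682, 1668 and 1926 CPM in the controls and 2584 and 1972 CPM in dCKO, with a log2 fold change of 0.37 (adjusted p = 0.0526 by edgeR). Rpl24, whose mouse mutant Belly spot and tail has skeletal and pigment defects, read 57.2, 79.5 and 81.0 CPM against 99.4 and 99.2 CPM (0.45, adjusted p = 0.0584). Rpl18, named after its values were seen, had 0.45 (adjusted p = 0.0607), and Rps2, likewise, 0.41 (adjusted p = 0.0741). In Rpl8 and Rpl24 the dCKO libraries were above all controls.

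Other highly abundant members had small differences with narrow intervals. Rpl4 read 1474, 1393 and 1342 CPM in the controls and 1367 and 1445 CPM in dCKO, a log2 fold change of 0.00 with an interval of -0.20 to 0.20. Rps3, at the messenger entry, had 0.18 with an interval of -0.04 to 0.40. The groups overlapped in Rpl4 and Rps3.

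Rpl5 and Rpl11 travel with 5S ribosomal RNA and, when ribosome assembly is disturbed, bind Mdm2 and so raise p53. Rpl5 read 243, 264 and 208 CPM in the controls and 194 and 241 CPM in dCKO, with a log2 fold change of -0.13 (adjusted p = 0.599 by edgeR). Rpl11 read 86.8, 113 and 101 CPM against 120 and 122 CPM (0.27, adjusted p = 0.226). The groups overlapped in Rpl5 and were apart in Rpl11, and neither passed the test.

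Rps6, the substrate of S6 kinase, read 489, 447 and 479 CPM in the controls and 513 and 481 CPM in dCKO. The dCKO libraries lay within or just above the control range, and the log2 fold change was 0.08 with an interval of -0.15 to 0.30. Rpsa, also known as the laminin receptor precursor, had 0.21 (adjusted p = 0.325 by edgeR), and Rps27a, made as a fusion with ubiquitin, had 0.09 (adjusted p = 0.727).

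Mouse mutants of some members have patterning or pigment phenotypes. Rpl38, whose mutant Tail short has homeotic changes of the axial skeleton, read 20.9, 35.8 and 24.9 CPM in the controls and 27.3 and 33.2 CPM in dCKO, with both dCKO libraries inside the control range (0.15, adjusted p = 0.707 by edgeR). Rps19, mutated in Diamond-Blackfan anaemia and in a dark skin mouse, read 96.8, 111 and 148 CPM against 184 and 140 CPM. It overlapped between groups, with a log2 fold change of 0.45 (adjusted p = 0.102). Rps7 had 0.24 (adjusted p = 0.253) and Rps20 -0.06 (adjusted p = 0.877). Of 15 genes of the family linked to Diamond-Blackfan anaemia, 14 could be tested and 0 were called, beside 6.42% of all tested genes. Their median log2 fold change was 0.23.

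Some paralogs of ribosomal proteins can replace the main protein in some tissues, and which of those below do so was not tested. Rpl7l1 read 263, 246 and 230 CPM in the controls and 215 and 198 CPM in dCKO, lower in both dCKO libraries than in any control, with a log2 fold change of -0.25 (adjusted p = 0.218 by edgeR). Rpl7 had -0.19 (adjusted p = 0.395). Rps27l, a p53 target in other settings, had -0.35 (adjusted p = 0.287) beside 0.83 (adjusted p = 0.344) for Rps27, which rests on 81 counts. Rps27 read 1.58, 0.947 and 1.22 CPM in the controls and 1.76 and 2.68 CPM in dCKO, with dCKO above all controls. Rpl22l1 read 141, 129 and 96.6 CPM in the controls and 123 and 111 CPM in dCKO, inside the control range.

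The remaining pairs had small fold changes. Rpl22, the partner of Rpl22l1, had a log2 fold change of 0.16, Rpl36al had -0.10 beside 0.20 for Rpl36a, and Rps4y2 had 0.08 beside -0.02 for the X-linked Rps4x. Rpl3, Rpl10 and Rpl39, whose paralogs Rpl3l, Rpl10l and Rpl39l had 0, 2 and 7 counts over all libraries, had 0.20, -0.16 and -0.09. Rps19bp1 had -0.04. Of the genes in this paragraph 0 passed edgeR's test. Rps4y2 carries a symbol that is annotated as the pseudogene Rps4l in GENCODE M21.

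Some members varied as much within a group as between groups. Rps21, chosen for this after its values were seen, read 37.3, 94.5 and 30.9 CPM in the controls and 47.1 and 39.7 CPM in dCKO, so that control replicate 2 alone was high. Rpl13, likewise chosen, read 305, 311 and 156 CPM against 296 and 169 CPM, with 1 low library in each group. The ratio of the highest to the lowest library of a group was above 1.5 in 19 members within the controls and in 8 within dCKO. Its median was 1.29 and 1.19, beside 1.26 and 1.13 over all tested genes. The controls had more libraries than dCKO, which raises this ratio, so it does not compare the spread of the groups. Control replicate 2 was the highest control in 50% of the members, beside 30.0% of all tested genes.

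As a share of all counts, the members took 2.26%, 2.38% and 2.21% in control replicates 1 to 3 and 2.57% and 2.32% in dCKO replicates 1 and 2. The second dCKO library fell inside the control range, and the means were 2.28 ± 0.085 (SD, n = 3) and 2.44 ± 0.176 (SD, n = 2). The Wilson 95% interval was 2.24% to 2.27% in the first control and 2.56% to 2.58% in the first dCKO library, and such intervals cover counting error only, since reads without molecular identifiers are not independent molecules. The large subunit took 1.32, 1.24 and 1.37 counts for each of the small subunit in the controls and 1.31 and 1.38 in dCKO, and the groups overlapped.

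Hba-x and the beta-type globins Hbb-y and Hbb-bh1, which mark primitive red cells, took 0.441%, 0.355% and 0.335% of counts in the controls and 7.43% and 5.30% in dCKO. With erythroid and globin genes left out of the total, the members' share was 2.29 ± 0.086% (SD, n = 3) for controls against 2.62 ± 0.231% (SD, n = 2) for dCKO. By library this share was 2.27%, 2.38% and 2.22% in the controls and 2.78% and 2.45% in dCKO, so the groups did not overlap. The part of red cells, or of the other cell types whose markers differed, in the members' levels was not tested. With erythroid and globin genes removed before scaling, 7 members were higher and 0 lower.

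**Figure D3:**
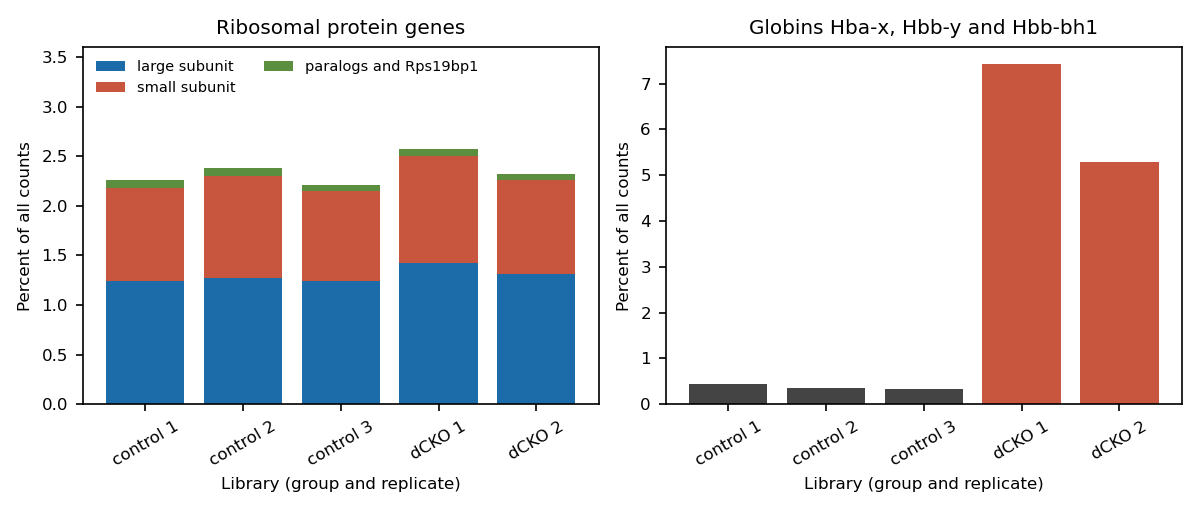
Percent of all counts in each library taken by the members (left, stacked by class) and by the embryonic globins (Hbb-y, Hbb-bh1 and Hba-x, right). The members' share was 2.21% to 2.38% in controls and 2.32% and 2.57% in dCKO, whereas the globin share was at most 0.441% in controls and at least 5.30% in dCKO.

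The members' fold changes were higher in transcripts of higher GC content. Across the 82 members the Pearson r was 0.39, and across 12619 tested genes it was 0.29. By Spearman's rank correlation the order was the other way, 0.40 over the members and 0.49 over the 12619 genes. These are descriptions of genes measured in the same libraries. In transcripts under 48% GC the median log2 fold change was -0.06 for 15 members and -0.16 for the other genes. From 48 to 52% GC it was 0.17 for 30 members and -0.03 for the others, from 52 to 56% it was 0.21 for 23 members and 0.09, and from 56% it was 0.23 for 14 members and 0.21. The members' median was above that of the other genes in each of the 4 bands, by little in the highest.

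After each library's trend with GC content had been removed, 4 members were higher, Rpl23a, Rplp0 and Rps14 among them, and 0 lower, and the median was 0.10 beside -0.01 over all genes. Rps15 then had 0.32 (adjusted p = 0.0876 by edgeR) and Rps13 0.64 (adjusted p = 0.0703). With the trend fitted by least squares and not recentred, which moved the median of all genes to -0.10, 0 members passed and the members' median was 0.00. The part of GC content in the result was not tested beyond these fits.

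**Figure D4:**
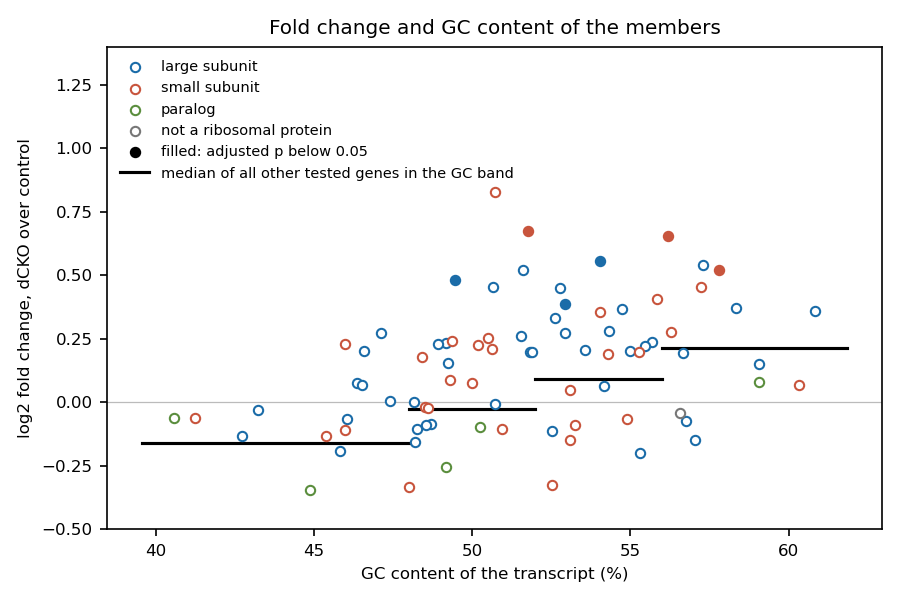
Log2 fold change of dCKO over control against the GC content of the transcript for the 82 members, with black lines for the median of all other tested genes in 4 GC bands. The 6 filled points, all at 48% GC or more, passed the adjusted threshold; the black lines climb from -0.16 to 0.21.

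Scaling set where the family stood against 0. With no scaling factor the members' median was 0.09 beside -0.08 over all genes, and 4 members were higher. When library size was taken as the summed counts of the members, so that each was measured against the others, their median was -0.00 by construction beside -0.17 over all genes, 1 member was higher (Rps14, 0.50, edgeR adjusted p = 0.0484) and 1 lower (Rps3a1, -0.50, edgeR adjusted p = 0.0434). Rps3a1, which binds near the exit site of the small subunit, read 154, 155 and 119 CPM in the controls and 102 and 124 CPM in dCKO, and in the TMM fit had -0.34 (adjusted p = 0.172 by edgeR).

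**Figure D5:**
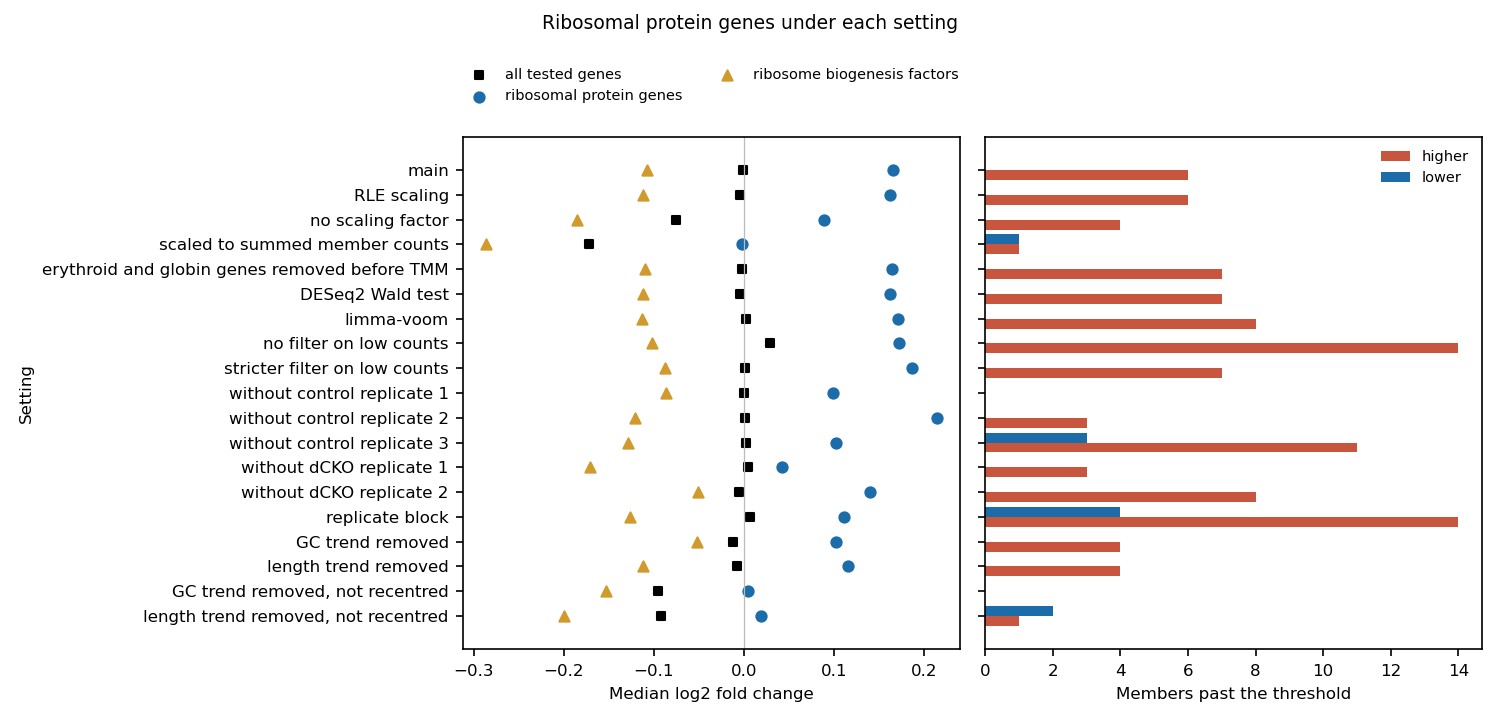
Median log2 fold change of the members, of all tested genes and of ribosome biogenesis factors (left) and number of members past the threshold in each direction (right) under the reported fit and 18 alternatives. The members' median lies to the right of that of all genes under each setting, and the number of higher members runs from 0 to 14.

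In the authors' deposited table, all 82 members were present and 3 had an adjusted p under 0.05, Rps15 at 0.00972 and Rplp0 at 0.0498 among them, beside 536 of 18610 genes. All 3 are also among the 6 above. Rps14, Rpl23a and Rps13 did not pass there, with adjusted p of 0.145, 0.133 and 0.684 in the authors' DESeq comparison.

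Of the ribosomal proteins listed under other symbols, Fau (a fusion with a ubiquitin-like protein) and Gnb2l1 (the scaffold Rack1) had log2 fold changes of 0.22 and 0.14, and neither passed the test. The lists that follow were drawn up from textbook knowledge. Beside 6.42% of all tested genes, 5.56% of TOP transcripts, 1.43% of biogenesis factors and 3.23% of initiation factors were called. For regulators of TOR and MYC it was 7.14%, for mitochondrial ribosomal proteins 2.63% and for the 9 small nucleolar RNA hosts 11.1%. Of 18 other TOP transcripts, which code mainly for elongation and initiation factors, 1 was higher (Eif3f, 0.42, SE 0.12, edgeR adjusted p = 0.0354) and 0 lower, with a median of -0.00. The call of Eif3f was lost without control replicate 1, control replicate 2 or dCKO replicate 1, with adjusted p of 0.123, 0.170 and 0.420. Eef2, the translocase, had 0.30 (adjusted p = 0.0827).

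Factors that build the ribosome had mostly negative fold changes. Of 70 tested biogenesis factors, 0 were higher and 1 was lower, with a median log2 fold change of -0.11. Of the 70, 52 were negative, beside 6363 of all 12710 tested genes. The 1 that fell was Ncl, nucleolin of the nucleolus, which read 1808, 1647 and 1559 CPM in the controls and 1266 and 1365 CPM in dCKO (-0.35, SE 0.10, edgeR adjusted p = 0.0429). Both dCKO libraries lay below the controls. Its call was lost in 4 of the fits that left out a library, with adjusted p of 0.252 without control replicate 1, 0.107 without control replicate 2, 0.286 without dCKO replicate 1 and 0.106 without dCKO replicate 2, and when the GC trend was removed (-0.18, adjusted p = 0.218). The list's median was then -0.05. Mphosph10 and Brix1, also of this list, had -0.39 and -0.41 with adjusted p of 0.0546 and 0.0619.

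Subunits and factors of RNA polymerase I, which transcribes ribosomal RNA, had 0 of 13 called and a median log2 fold change of -0.08. Of 31 initiation factors, 0 were higher and 1 was lower (Eif1a, which helps scan for the start codon, -0.49, SE 0.12, edgeR adjusted p = 0.0176), with a median of -0.03. Its adjusted p was 0.0923 without control replicate 1, and 0.167 and 0.105 without the first and the second dCKO library, and with the GC trend removed 0.145.

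Among 28 regulators of TOR and MYC, 1 was higher (Larp1, 0.44, SE 0.13, edgeR adjusted p = 0.0474) and 1 lower (Rps6ka3, a kinase of Rps6, -0.55, SE 0.15, edgeR adjusted p = 0.0397), with a median of 0.07. Larp1 read 228, 233 and 308 CPM in the controls and 352 and 346 CPM in dCKO. Its adjusted p was 0.238, 0.196, 0.227 and 0.126 without control replicate 1, control replicate 2, dCKO replicate 1 and dCKO replicate 2, and that of Rps6ka3 was 0.221, 0.0762 and 0.462 without the first 3 of these. With the GC trend removed neither passed, at 0.36 (adjusted p = 0.0687) for Larp1 and -0.34 (adjusted p = 0.127) for Rps6ka3. Myc had 0.34 (adjusted p = 0.0936) and Mycn 0.07 (adjusted p = 0.795).

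The ribosomal proteins of mitochondria, which serve a separate ribosome, had 1 of 76 higher (Mrpl4, 0.51, SE 0.14, edgeR adjusted p = 0.0367) and 1 lower (Mrps6, -0.54, SE 0.16, edgeR adjusted p = 0.0480), with a median of 0.01. Neither passed without control replicate 1, control replicate 2, dCKO replicate 1 or dCKO replicate 2, with adjusted p of 0.0585 to 0.378 for Mrpl4 and 0.0783 to 0.344 for Mrps6. With the GC trend removed Mrpl4 had 0.26 (adjusted p = 0.225), no longer past the threshold, and Mrps6 -0.65 (adjusted p = 0.0146). Of 9 host transcripts of small nucleolar RNAs, 1 was higher (Snhg12, 0.69, SE 0.20, edgeR adjusted p = 0.0418) and 0 lower, with a median of -0.25. Without the same 4 libraries in turn its adjusted p was 0.0519 to 0.342.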

How the data were processed

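For 3 control and 2 dCKO libraries, whole-number read counts by gene symbol, not normalized, were deposited by the authors. The mm9 build, DESeq 1.16.0 and HTSeq 0.5.4p3 are named in the submitters' processing notes. The sources used here do not give the aligner, the annotation or the strand setting. The authors' deposited comparison holds normalized mean signal, fold change as a ratio, log2 fold change, p-value and adjusted p-value per gene. Count columns headed wild type were matched to the control titles by replicate number, and 27 rows carry symbols turned into dates.

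Counts were filtered with filterByExpr (minimum count 10, minimum total 15), scaled with TMM and tested in edgeR 4.0.16 (R 4.3.3; glmQLFit, glmQLFTest, two-sided, Benjamini-Hochberg over 12710 genes, threshold 0.05). An adjusted p without another tool is from this test. The standard error is the size of the log2 fold change divided by the root of F, and the 95% interval uses the t distribution at the fit's degrees of freedom. The script was tested on simulated data. GC content, length and shared 50-base words came from GENCODE M21 (GRCm38), a build other than that of the files, so no coordinate was joined to them; GC content was found for 99.3% of tested genes. Libraries of 1 group had a chi-square per gene of 4.34 to 14.6 between them, more than sampling noise gives, so each was counted.

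Named were members past the threshold, the 5 most and 5 least abundant, those left out by the minimum, members fixed by role, and up to 3 of each context list by p. Rpl18, Rps2, Rps3a1, Rps21, Rpl13, Rpl41, Rpl7a, Rps15a, Myc and Mycn were named after their values were seen. Members and lists were chosen with earlier results of these data known. Alternatives were RLE and other scalings, DESeq2 1.42.0, limma-voom (limma 3.58.1), other filters, each library left out, the replicate number as a block, and GC or length trends removed. Some genes covered by this rule are not reported here, nor shown in plots that label genes.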

Additional observations from a re-analysis of the deposited data

How the results depend on the processing

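The count of members called higher (6) moved by over 1.5 times to 1 when scaled to the members' sum, 14 without a low count filter, 0 to 11 when 1 library was left out, 0 with the GC trend and 1 with the length trend fitted by least squares without recentring. The last 2 fits, and those of the count share, were chosen after seeing the data. The count of members called lower (0) was 1, 0 to 3 and 2 under the scaling to the members' sum, the left-out libraries and that length fit. The members' median (0.17) was -0.00227 under the scaling to the members' sum, reversed by construction, 0.00455 and 0.0195 under the 2 added fits, and 0.0425 to 0.215 with 1 library left out. Genes called higher overall (636) were 403 to 950 with 1 library left out; genes called lower (180) were 39 to 687, and 469 with no scaling, 973 scaled to the members' sum, 305 without a filter, and 588 and 834 under the added GC and length fits. With no scaling 53.1% of calls were higher, against 77.9%. The replicate number as a block (replicate block) gave 14 members higher and 4 lower, and 1200 and 921 genes overall; the numbers did not pair the samples, since deviations of same-numbered libraries correlated at 0.08 and -0.00 over all genes (0.27 and 0.02 over the members) and the labels name no shared source. RLE scaling, DESeq2 and limma-voom gave 6, 7 and 8 members higher and 0 lower. The difference in the members' share of counts (0.162 percentage points) was 0.327 without erythroid genes and 0.038 to 0.287 with 1 library left out. Of 1240 values of named genes under alternatives, 1044 kept their side of the threshold and none of the called ones turned. Without a dCKO library, the lone other was taken to vary like the controls. Depth limits Rps27, Rpl30 and Rpl34, whose intervals are wide.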

Other observations

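Some rows with pseudogene symbols, which the symbol rule leaves out, held more counts than the gene they copy. Rpl31-ps12 had 4699 counts over the 5 libraries, beside 1777 for Rpl31. Rps15a-ps6 had 7411 and Rps15a-ps4 2497, beside 1558 for Rps15a. Rps19-ps3 had 4422 counts, fewer than the 6348 of Rps19. Of these 4 pseudogene rows 0 passed the test between groups. Rpl31-ps12 read 153, 114 and 86.8 CPM in the controls and 93.4 and 85.0 CPM in dCKO, and Rps19-ps3 read 77.9, 87.1 and 88.8 CPM against 107 and 111 CPM, the latter with dCKO above all controls (log2 fold change 0.36, adjusted p = 0.0740 by edgeR).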
